A study of Mus musculus with 41 samples.

Results

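Genes of cholesterol and fatty acid synthesis were followed in MEEC, a mouse embryonic line of endocardial cells, the cells that line the inside of the heart. The members are 22 genes of the sterol pathway and 11 genes of fatty acid synthesis and desaturation. They were chosen by symbol, and each had the same Ensembl identifier in all 3 deposited tables, which list 13886, 12984 and 13407 genes. All 33 were listed in every table, and the rule itself uses no measured value.

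RNA-seq was run on 41 libraries of wild-type MEEC in 13 groups and 3 experiments that stimulated or blocked Notch, a receptor pathway switched on by ligands of neighbouring cells. In the first experiment MEEC were placed on OP9 cells, a mouse bone marrow stromal line used as a feeder, which carried GFP, Dll4 or Jag1 (n = 3 libraries per group). OP9 cells stood at 90% confluence, and MEEC at 50% for the 6 h co-culture or 25% for the 24 h co-culture, so time and cell density cannot be told apart. In the second experiment MEEC spent 24 h in DMSO or in 20 µM RO4929097 and then 6 h on OP9-GFP (n = 4). RO4929097 blocks gamma-secretase, the protease that frees the active part of the Notch receptor. In the third experiment MEEC grew without feeder cells for 38 h, the last 14 h without serum, on rDLL4 or rJAG1 attached to the well, or with DMSO and no ligand, called vehicle here (n = 3). Both recombinant ligands were combined with DMSO or with 20 µM RO4929097. No group of this experiment had RO4929097 without ligand, so an effect of the inhibitor alone cannot be told apart from one on the ligand response. The labels do not say whether OP9 cells were taken off before RNA was extracted, so co-culture libraries may hold RNA of both cell types. In such bulk samples fewer cells of a type and less RNA per cell cannot be told apart.

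Depth was 14.1 to 16.8 M reads per co-culture library, 19.4 to 25.2 M with the inhibitor over OP9-GFP and its control, and 11.2 to 34.2 M for recombinant ligands. The Notch target Hey1 passed the test in both 24 h ligand co-cultures (log2 fold change 1.09 ± 0.17 over OP9-Dll4 and 1.92 ± 0.17 over OP9-Jag1). It was also higher on rDLL4 (1.95 ± 0.14) and rJAG1 (3.25 ± 0.14) and lower with RO4929097 over OP9-GFP (-0.70 ± 0.14), while at 6 h it passed over OP9-Jag1 (0.96 ± 0.17) and not over OP9-Dll4 (0.55 ± 0.17, limma adjusted p = 0.75 unpaired and 0.046 in the paired fit within each time described below). Of the other targets checked, on rJAG1 Nrarp rose by 2.28 ± 0.23 and Hes1 by 1.07 ± 0.14. Of 10 endothelial and endocardial markers, 5 or 6 were listed in each table, among them Kdr, Tek and Nfatc1, whereas Pecam1, Cdh5, Tie1 and Emcn had no row in the tables as used here. Of 9 genes taken as stromal markers 7 were listed, and these were also present in the third experiment, which had no OP9 cells, so they do not separate the cell types. Of 10 cardiomyocyte markers 6 were listed in the first table, and the contractile genes Myh7, Myl2, Actc1 and Ttn stood apart in the OP9-Dll4 libraries. Myh7 read 19.5, 6.64 and 6.37 over OP9-Dll4 at 24 h and 0.0298, 0.158 and 5.75 at 6 h, where library 3 is alone high, and at most 0.1597 in every OP9-GFP and OP9-Jag1 library. Actc1 read 9.24, 3.75 and 3.52 and 0.0298, 0.0316 and 2.69 in the same groups and at or below 0.0361, the signal of 0 reads, in each of the others.

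Cholesterol is built from acetyl-CoA through mevalonate, isoprenoids and squalene to lanosterol, which is then trimmed to cholesterol. Most genes of this chain are driven by a membrane-bound factor encoded by Srebf2, which Scap carries to the Golgi for cleavage when sterols are scarce, while Insig1 and sterols hold Scap back. The related factor encoded by Srebf1 acts mainly on genes of fatty acid synthesis and desaturation.

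Promoters of 5 members are shown, with known binding letters of the pathway marked where they occur. Of these 5, only Hmgcs1 held the sterol regulatory element. The sequences are RefSeq entries of build GRCm38.p6, 250 bases upstream of the annotated start, 5′ to 3′ on the gene's strand. Capitals mark a sterol regulatory element (TCACNCCAC) or a CCAAT box (the site of the SREBP partner NF-Y), searched on both strands, so that ATTGG is a CCAAT box on the other strand and neighbouring boxes may overlap. Hmgcs1, Mvd, Sc5d and Fasn rose at 24 h of co-culture, and Ebp did not pass there. None of the 5 windows overlapped an annotated exon.
Hmgcs1, chr13:119690101-119690350, + strand: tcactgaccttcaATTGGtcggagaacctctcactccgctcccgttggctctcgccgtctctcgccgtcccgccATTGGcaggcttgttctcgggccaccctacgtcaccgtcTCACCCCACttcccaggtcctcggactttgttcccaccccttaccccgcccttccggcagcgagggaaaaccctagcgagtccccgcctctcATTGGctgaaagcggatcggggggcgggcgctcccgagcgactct
Mvd, chr8:122443423-122443672, - strand: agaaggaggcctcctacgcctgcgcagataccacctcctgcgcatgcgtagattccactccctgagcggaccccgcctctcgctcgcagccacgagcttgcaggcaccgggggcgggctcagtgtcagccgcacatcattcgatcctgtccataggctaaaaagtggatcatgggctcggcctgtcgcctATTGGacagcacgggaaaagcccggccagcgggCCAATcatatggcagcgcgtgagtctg
Sc5d, chr9:42264301-42264550, - strand: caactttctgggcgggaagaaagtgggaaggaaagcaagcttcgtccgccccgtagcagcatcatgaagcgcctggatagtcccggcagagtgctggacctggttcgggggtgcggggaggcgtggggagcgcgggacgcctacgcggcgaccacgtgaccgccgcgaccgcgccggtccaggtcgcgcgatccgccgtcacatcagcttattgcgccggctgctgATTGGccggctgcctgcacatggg
Fasn, chr11:120824548-120824797, - strand: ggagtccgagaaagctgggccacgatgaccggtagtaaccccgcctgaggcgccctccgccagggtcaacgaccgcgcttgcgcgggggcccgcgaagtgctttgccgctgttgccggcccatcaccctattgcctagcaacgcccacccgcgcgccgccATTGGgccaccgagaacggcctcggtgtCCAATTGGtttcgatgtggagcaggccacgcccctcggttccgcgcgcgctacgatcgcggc
Ebp, chrX:8193513-8193762, - strand: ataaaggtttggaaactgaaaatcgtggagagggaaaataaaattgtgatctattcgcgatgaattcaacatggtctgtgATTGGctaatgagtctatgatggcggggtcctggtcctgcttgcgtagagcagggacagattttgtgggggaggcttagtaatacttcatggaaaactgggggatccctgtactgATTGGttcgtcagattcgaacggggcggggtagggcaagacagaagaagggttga
RefSeq entries matched 18 of the 22 sterol members and 8 of the 11 fatty acid members. In windows of the 250 bases before the start, the CCAAT box occurred in 16 of the 18 and in 4 of the 8, beside 33.8% of all 32536 promoters in the table. For each motif a member counts if any of its entries holds it (22 entries for the 18 and 11 for the 8). The share over all promoters is per entry, so members with several entries had more chances of a match. The element TCACNCCAC was found only at Hmgcs1 among the matched members (TCACCCCAC, starting at -137 from the transcription start), beside 1.04% of all promoters. The GC box GGGCGG, a site of Sp1, was in 17 of the 18 sterol members and 5 of the 8 fatty acid members, beside 32.97% of all promoters. The E-box CACGTG was in 5 of the 18 and none of the 8, beside 6.04%. The windows shown of Hmgcs1, Mvd, Sc5d and Fasn, which rose, and of Ebp all held CCAAT boxes. Those of Acly and Acaca, which also rose on each feeder, held none, nor did that of Elovl6, which rose over OP9-Jag1. The only Acaca window, chr11:84195188-84195437, lies inside the gene, which starts at 84129672 on the + strand. The bases before that start were not searched. A match of letters is a description, not a shown binding site.

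Between 6 h and 24 h of co-culture over OP9-GFP, 11 of the 22 sterol members rose and none fell. This comparison asked how the cells changed with time when the feeder carried no added ligand. Of all 13886 genes, 9.45% rose and 9.71% fell (limma, Benjamini-Hochberg adjusted p under 0.05, used for every call below unless another fit is named). The median log2 fold change, on the log2(signal + 1) scale, was 0.37 over the sterol members, 0.30 over the fatty acid members and -0.01 over all genes. Likewise 4 of the 11 fatty acid members rose and none fell. Over OP9-Dll4 the counts were 10 sterol and 4 fatty acid members higher and none lower, beside 9.09% of genes higher and 8.33% lower. Of the 6 listed cardiomyocyte markers 4 (Myh7, Myl2, Actc1 and Ttn) rose and Myl7 fell in the same comparison. Without the 6 h OP9-Dll4 library 3 the members called came to 9, without library 1 to 10 and without library 2 to 12. Leaving out the 24 h OP9-Dll4 library 3 gave 7. The part of the cardiomyocyte markers in the result was not tested. Over OP9-Jag1 11 sterol and 7 fatty acid members rose and none fell, beside 7.14% higher and 7.61% lower. After quantile normalization 8 members in place of 14 passed over OP9-Dll4, where Idi1, Sqle, Msmo1, Sc5d, Acly and Fasn were lost, and Acly and Fasn were also lost over OP9-GFP, as were Cyp51, Srebf1 and Elovl6 over OP9-Jag1.

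**Figure D1:**
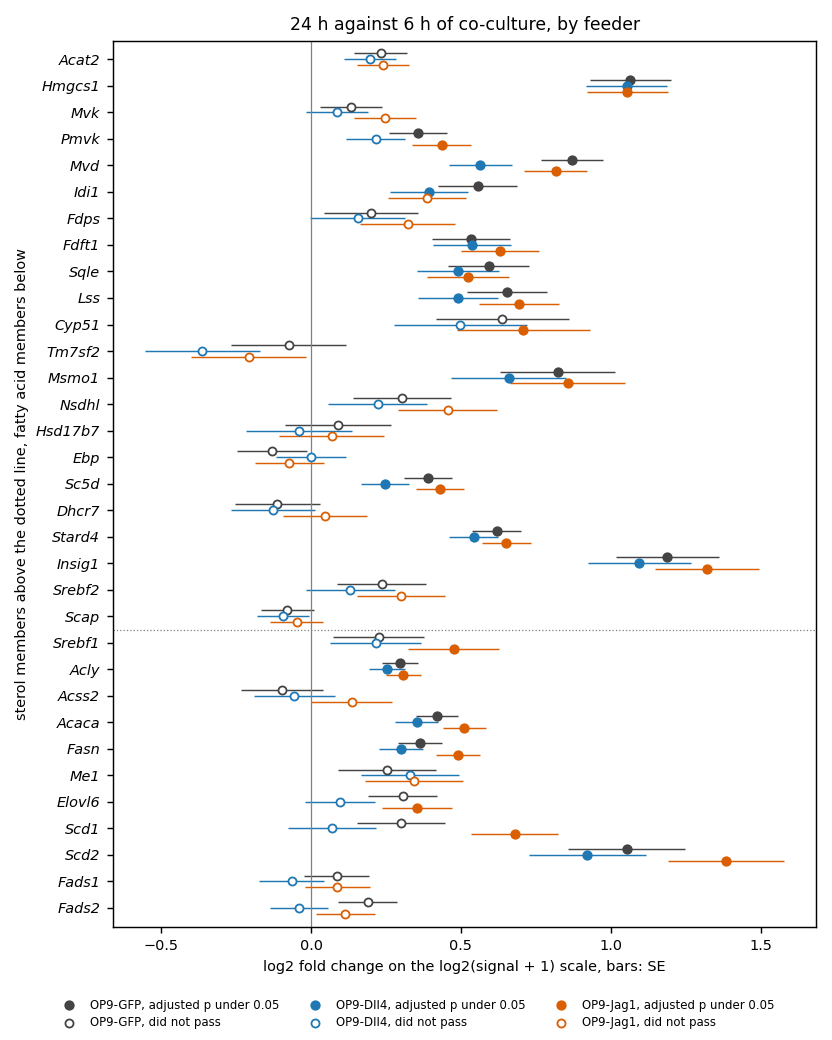
Log2 fold change of each of the 33 members between 6 h and 24 h (x axis, log2(signal + 1) scale) over OP9-GFP, OP9-Dll4 and OP9-Jag1, with the SE as a bar and filled points at a limma adjusted p under 0.05. Insig1, Hmgcs1 and Scd2 lie at or near 1 or above over every feeder, while Scap, Ebp and Dhcr7 lie near 0.

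Among the enzymes that lead to isoprenoids, Hmgcs1, which makes HMG-CoA, read 112, 106 and 110.3 in the 3 libraries at 6 h over OP9-GFP and 214, 205 and 277 at 24 h. The values were 91.8, 92.4 and 97.0 and 189.6, 162 and 242 over OP9-Dll4, and 103, 102 and 108 and 216, 183 and 261 over OP9-Jag1. Every 24 h library lay above every 6 h library on all 3 feeders, and the log2 fold changes were 1.06 ± 0.13 (adjusted p = 9.3e-05), 1.05 ± 0.13 (adjusted p = 0.00012) and 1.05 ± 0.13 (adjusted p = 0.00011) over GFP, Dll4 and Jag1. Mvd, the decarboxylase that ends the mevalonate steps, read 15.6, 15.4 and 15.0 and then 29.6, 26.6 and 30.5 over OP9-GFP. Over OP9-Dll4 its values were 17.3, 16.3 and 15.1 at 6 h and 23.1, 21.2 and 30.0 at 24 h, and over OP9-Jag1 15.5, 16.5 and 17.0 and 29.9, 27.3 and 31.3. The times did not overlap on any feeder, and the log2 fold changes were 0.87 ± 0.10 (adjusted p = 6.9e-05), 0.57 ± 0.10 (adjusted p = 0.0017) and 0.82 ± 0.10 (adjusted p = 0.00011). Idi1, which isomerizes isopentenyl diphosphate, read 99.9, 127 and 119 and then 163, 159 and 188 over OP9-GFP (0.56 ± 0.13, adjusted p = 0.0083). It also rose over OP9-Dll4 (0.39 ± 0.13, adjusted p = 0.048), where the call held in 1 of 6 fits that left out 1 library, and over OP9-Jag1 it missed the threshold (0.39 ± 0.13, adjusted p = 0.057). Pmvk, phosphomevalonate kinase, rose over OP9-GFP (0.36 ± 0.10, adjusted p = 0.018) and OP9-Jag1 (0.44 ± 0.10, adjusted p = 0.0069) and not over OP9-Dll4 (0.22 ± 0.10, adjusted p = 0.13). Acat2, Mvk and Fdps did not pass on any feeder, with log2 fold changes between 0.09 (Mvk over OP9-Dll4) and 0.32 (Fdps over OP9-Jag1).

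The squalene and lanosterol steps rose on all 3 feeders. Sqle, squalene epoxidase, read 74.4, 95.8 and 81.4 and then 121, 111 and 149.9 over OP9-GFP, 70.6, 94.3 and 81.1 and 109, 108 and 129 over OP9-Dll4, and 78.7, 102 and 89.5 and 118, 123 and 149 over OP9-Jag1. Its log2 fold changes were 0.59 ± 0.14 (adjusted p = 0.0071), 0.49 ± 0.14 (adjusted p = 0.022) and 0.52 ± 0.14 (adjusted p = 0.016). Lss, the cyclase that forms lanosterol, read 48.0, 66.8 and 62.7 and then 88.3, 85.7 and 105 over OP9-GFP, 53.0, 63.4 and 55.7 and 73.9, 72.3 and 98.7 over OP9-Dll4, and 54.5, 62.9 and 62.7 and 93.6, 90.3 and 109.6 over OP9-Jag1. No 24 h library of Sqle or Lss lay as low as a 6 h library of the same feeder, and Lss changed by 0.65 ± 0.13 (adjusted p = 0.0033), 0.49 ± 0.13 (adjusted p = 0.019) and 0.69 ± 0.13 (adjusted p = 0.0025). Fdft1, squalene synthase, read 48.1, 59.5 and 51.4 and then 76.2, 66.4 and 90.5 over OP9-Dll4 and 50.4, 60.5 and 58.7 and then 83.8, 78.1 and 103 over OP9-Jag1. It rose by 0.53 ± 0.13, 0.54 ± 0.13 and 0.63 ± 0.13 over GFP, Dll4 and Jag1 (adjusted p = 0.01, 0.01 and 0.0041).

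Of the enzymes after lanosterol, Msmo1, a sterol methyl oxidase, read 47.1, 71.1 and 57.1 and then 95.4, 82.9 and 137 over OP9-GFP, 44.3, 63.2 and 51.7 and 74.0, 75.1 and 105 over OP9-Dll4, and 47.9, 59.3 and 50.3 and 84.3, 90.2 and 114 over OP9-Jag1. The times did not overlap on any feeder, and Msmo1 rose by 0.82 ± 0.19 (adjusted p = 0.0077), 0.66 ± 0.19 (adjusted p = 0.027) and 0.86 ± 0.19 (adjusted p = 0.0071). Cyp51, the lanosterol demethylase, read 78.3, 117 and 99.8 and then 146, 144 and 193 over OP9-Jag1 and rose there (0.71 ± 0.22, adjusted p = 0.041), a call that held in 1 of 6 fits with a library left out. Over OP9-GFP it changed by 0.64 ± 0.22 (adjusted p = 0.054) and did not pass. Sc5d, the sterol desaturase, rose on all 3 feeders, by 0.39 ± 0.08, 0.25 ± 0.08 and 0.43 ± 0.08 (adjusted p = 0.0035, 0.044 and 0.0021). Over OP9-Dll4 the call of Sc5d held in 1 of 6 fits with a library left out, and those of Sqle, Lss and Msmo1 in 3 of 6. Nsdhl, Hsd17b7, Ebp, Dhcr7 and Tm7sf2, which act on the same intermediates, did not pass on any feeder, with log2 fold changes from -0.36 (Tm7sf2 over OP9-Dll4) to 0.46 (Nsdhl over OP9-Jag1). The late genes Ebp and Dhcr7 lay near 0: Ebp read 31.6, 33.2 and 33.01 and then 30.1, 24.5 and 35.5 over OP9-GFP.

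Insig1, the sterol-sensing brake on Scap, had the largest log2 fold change of the sterol members on each feeder. It read 38.9, 53.9 and 45.6 and then 93.9, 94.96 and 131 over OP9-GFP, 35.0, 48.9 and 38.9 and 85.9, 71.9 and 109 over OP9-Dll4, and 38.4, 51.5 and 42.9 and 108, 99.4 and 128 over OP9-Jag1. The times were clear of each other, and the log2 fold changes were 1.19 ± 0.17 (adjusted p = 0.00028), 1.09 ± 0.17 (adjusted p = 0.00059) and 1.32 ± 0.17 (adjusted p = 0.00013). Stard4, a carrier of cholesterol between membranes, read 71.2, 75.2 and 73.4 and then 106, 108 and 127 over OP9-GFP, 63.3, 67.4 and 68.4 and 95.9, 88.4 and 108 over OP9-Dll4, and 72.5, 71.6 and 74.3 and 112, 107 and 128 over OP9-Jag1. Stard4 rose by 0.62 ± 0.08 (adjusted p = 0.00013), 0.54 ± 0.08 (adjusted p = 0.00042) and 0.65 ± 0.08 (adjusted p = 0.0001). The transcription factor gene Srebf2 did not pass: it read 180.0, 262 and 218 and then 254, 237 and 279 over OP9-GFP, which overlap (0.24 ± 0.15, adjusted p = 0.27), and it changed by 0.13 ± 0.15 (adjusted p = 0.57) over OP9-Dll4 and 0.30 ± 0.15 (adjusted p = 0.19) over OP9-Jag1. Scap, the escort protein, read 91.8, 102 and 92.1 and then 99.7, 83.9 and 87.1 and did not pass either (-0.08 ± 0.09, adjusted p = 0.55), nor over OP9-Dll4 (-0.09) or OP9-Jag1 (-0.05). Over OP9-Dll4 Srebf2 read 186, 266 and 201 and then 227, 218 and 263, and over OP9-Jag1 185, 258 and 228 and then 251, 272 and 298. Scap read 96.0, 109.6 and 85.1 and then 94.5, 86.2 and 90.2 over OP9-Dll4, and 83.4, 93.0 and 98.2 and then 85.2, 91.7 and 88.1 over OP9-Jag1. Both genes overlapped between the times on each feeder.

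**Figure D2:**
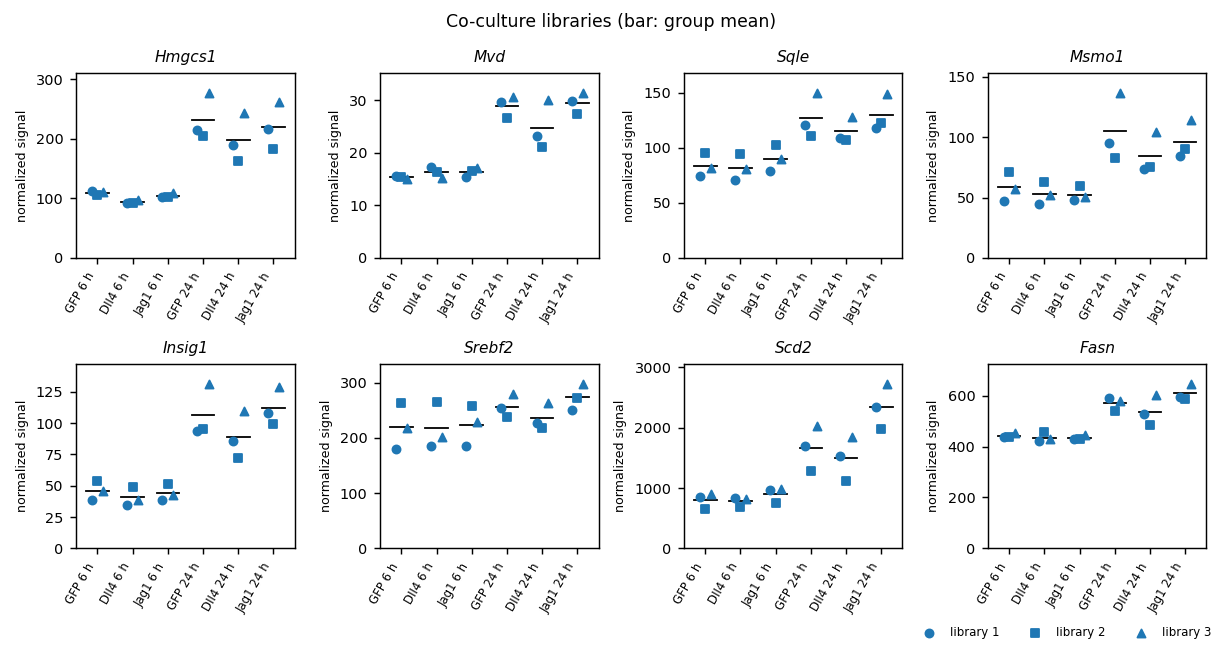
Deposited normalized signal (y axis, from 0) of 8 members in each of the 18 co-culture libraries, by feeder and time, with the group mean as a bar and the library number as the symbol. For Hmgcs1 and Insig1 the 24 h libraries stand above all 6 h libraries, while Srebf2 overlaps between times on every feeder, and library 2 is its highest at 6 h.

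The largest change among fatty acid members was that of Scd2, a stearoyl-CoA desaturase. Scd2 read 846, 649.7 and 898 at 6 h and 1698, 1280.2 and 2031 at 24 h over OP9-GFP, 833, 685 and 815 and 1536, 1121 and 1841 over OP9-Dll4, and 972, 746 and 976 and 2339.8, 1972 and 2730.0 over OP9-Jag1. The times did not overlap, and Scd2 rose by 1.05 ± 0.19 (adjusted p = 0.0017), 0.92 ± 0.19 (adjusted p = 0.0045) and 1.38 ± 0.19 (adjusted p = 0.00023). Fasn, fatty acid synthase, read 436, 437 and 452 and then 589, 539.6 and 579 over OP9-GFP, 420.5, 456 and 428 and 526, 483 and 602 over OP9-Dll4, and 428, 429 and 444 and 595, 587 and 647 over OP9-Jag1. Fasn rose by 0.36 ± 0.07 (adjusted p = 0.003), 0.30 ± 0.07 (adjusted p = 0.011) and 0.49 ± 0.07 (adjusted p = 0.00038). Acaca, the acetyl-CoA carboxylase that commits carbon to fatty acids, read 134, 124 and 142 and then 185, 167 and 184 over OP9-GFP, 134, 124 and 134 and 172, 153 and 176 over OP9-Dll4, and 137, 121 and 129.9 and 176, 183 and 194 over OP9-Jag1. It rose by 0.42 ± 0.07, 0.35 ± 0.07 and 0.51 ± 0.07 (adjusted p = 0.00092, 0.0033 and 0.00022). Acly, which makes cytosolic acetyl-CoA from citrate, rose by 0.30 ± 0.06, 0.25 ± 0.06 and 0.31 ± 0.06 (adjusted p = 0.003, 0.0088 and 0.0027), from 205, 212 and 208 to 259, 251 and 258 over OP9-GFP.

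Over OP9-Jag1 alone of the 3 feeders, Scd1, Srebf1 and Elovl6 also passed, and no Jag1 by time interaction of a member passed unpaired. Scd1, another stearoyl-CoA desaturase, read 231, 254 and 262 and then 376, 346 and 488 (0.68 ± 0.15, adjusted p = 0.0057). Srebf1 read 85.4, 116 and 109 and then 128, 145 and 158 (0.48 ± 0.15, adjusted p = 0.044), a call that held in none of the 6 fits with a library left out, and it changed by 0.23 ± 0.15 (adjusted p = 0.31) over OP9-GFP (80.7, 113 and 102 and then 119.5, 96.6 and 129.8) and 0.22 ± 0.15 (adjusted p = 0.34) over OP9-Dll4 (85.5, 122 and 95.6 and then 108, 112 and 129). Elovl6, an elongase of long-chain fatty acids, read 54.6, 52.3 and 59.8 and then 70.6, 64.2 and 79.5 (0.35 ± 0.12, adjusted p = 0.049), a call that held in 1 of 6 such fits. Fads1 and Fads2, the desaturases of polyunsaturated fatty acids, Acss2, an acetyl-CoA synthetase, and Me1, malic enzyme, did not pass on any feeder. Their log2 fold changes ran from -0.10 (Acss2 over OP9-GFP) to 0.34 (Me1 over OP9-Jag1).

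The summed deposited signal of the 22 sterol members lay above the 6 h range in every 24 h library of each feeder. It was 1333, 1673 and 1503 at 6 h and 2004, 1874 and 2405 at 24 h over OP9-GFP, 1288, 1586 and 1383 and 1770.4, 1626 and 2152 over OP9-Dll4, and 1346, 1641 and 1555 and 2059, 1950.0 and 2440.1 over OP9-Jag1. Libraries of the same number moved together: at 6 h library 2 held the highest value over all 3 feeders for 13 of the 22 sterol members and 1 of the 11 fatty acid members, and at 24 h library 3 did for 20 and 8. The summed signal of the 7 stromal genes was also highest in library 2 at 6 h on each feeder, with 1208, 1853 and 1286 over OP9-GFP, and its part in the result was not tested. Without the libraries numbered 2, an alternative chosen after seeing the data, 21, 15 and 22 members rose over GFP, Dll4 and Jag1. The shares of all genes called in those fits are not given here, so these counts cannot be set apart from a change over all genes. Every 24 h library lay above every 6 h library for 13 sterol and 5 fatty acid members over OP9-GFP (18.7% of all genes), 12 and 4 over OP9-Dll4 (18.0%) and 14 and 7 over OP9-Jag1 (16.7%).

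Genes next to these pathways moved in both directions with time. Of 18 further genes of fatty acid handling, 17 were listed, and 4 rose and 4 fell over OP9-GFP. Dgat2, which makes triglyceride, changed by -1.34 ± 0.19 (adjusted p = 0.00027) and Cpt1a, the entry step of fatty acid oxidation, by -0.76 ± 0.13 (adjusted p = 0.00096), while Acsl3, an acyl-CoA ligase, changed by 0.70 ± 0.14 (adjusted p = 0.0035) and Lpin1, a phosphatidate phosphatase, by 0.69 ± 0.17 (adjusted p = 0.011). Of 10 genes of LXR and cholesterol efflux 7 were listed, none rose and 2 fell, Ch25h (-0.64 ± 0.20, adjusted p = 0.037) and Nr1h2 (-0.31 ± 0.08, adjusted p = 0.013).

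The ligand comparisons asked what Dll4 or Jag1 on the feeder changed at each time. All contrasts with OP9-GFP at a time share the same 3 control libraries. At 24 h over OP9-Dll4, no member passed in the unpaired limma fit, beside 0.266% of all genes higher and 0.245% lower, although 20 of the 22 sterol and 9 of the 11 fatty acid members had a negative log2 fold change. At an unadjusted p under 0.05, limma gave 6 members and edgeR 3. Libraries of the same number deviated together within a time, so a paired fit (replicate block within each time) was set beside it. In that fit 11 sterol members and 4 fatty acid members were lower and none higher, beside 3.00% of all genes lower and 2.82% higher. Markers of other cell types moved with this comparison: Myh7, Myl2, Actc1 and Ttn of the 6 listed cardiomyocyte markers passed as higher unpaired. The summed signal of all 6, with Tnnt2 and Myl7, which did not pass, was 79.1, 43.8 and 49.3 over OP9-Dll4 and 33.2, 29.5 and 30.4 over OP9-GFP. The 6 listed endothelial genes summed to 74.2, 79.5 and 83.5 and 101.31, 98.8 and 101.04, without overlap, with Cd34 lower (-0.48 ± 0.07, adjusted p = 0.0072). Of the others Tek lay at -0.61, Npr3 at -0.004, Kdr at 0.14, Nfatc1 at 0.24 and Eng at 0.28, and none passed unpaired. The 3 listed adipocyte genes summed to 244, 318 and 279 and 323, 360.0 and 376, without overlap, with Lpl at -0.34 ± 0.13 (adjusted p = 0.48 unpaired and 0.00017 paired). The part of these in the result was not tested. In the pairs, 18 of the 22 sterol members were lower in 3 of 3 same-numbered pairs and none was higher in all, and 6 of the 11 fatty acid members were lower in 3 of 3, beside 17.7% of all genes lower and 18.2% higher in every pair.

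Stard4, with the smallest unadjusted p, read 95.9, 88.4 and 108 over OP9-Dll4 and 106, 108 and 127 over OP9-GFP at 24 h. The groups overlap, library 3 is the highest in each, and the log2 fold change was -0.22 ± 0.08 (adjusted p = 0.48 unpaired and 0.0016 paired). Idi1 read 138, 115 and 158 over OP9-Dll4, each below every one of the OP9-GFP libraries (163, 159 and 188), with -0.31 ± 0.13 (adjusted p = 0.59 unpaired and 0.00023 paired). Fads2 read 281, 244 and 317 against 344, 281 and 356, which overlap, with -0.22 ± 0.10 (adjusted p = 0.66 and 0.0063). The paired fit also called Hmgcs1 (-0.23 ± 0.13, paired adjusted p = 0.00099), Insig1 (-0.26 ± 0.17, 0.0036) and Scd1 (-0.31 ± 0.15, 1.5e-05). The SE printed with these is that of the unpaired fit, so it does not belong to the paired p. The other genes it called were Acat2, Fdps, Lss, Cyp51, Msmo1, Hsd17b7, Sc5d, Elovl6 and Fads1, each between -0.30 (Msmo1) and -0.15 (Acat2). Ebp was the one sterol member besides Scap with a positive log2 fold change (0.12), while Srebf2 (-0.12 ± 0.15, adjusted p = 1), Scap (0.00) and Srebf1 (0.02) passed in neither fit.

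**Figure D3:**
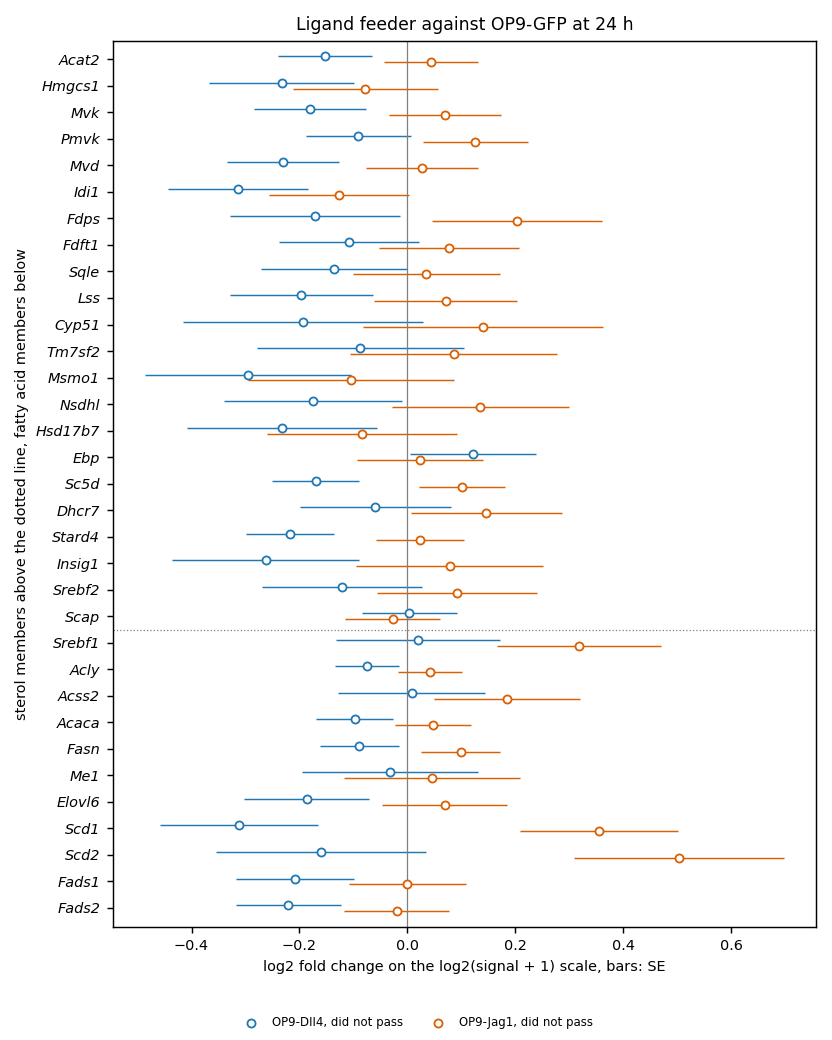
Log2 fold change of each member at 24 h over OP9-Dll4 and over OP9-Jag1, both against the same OP9-GFP libraries (x axis, log2(signal + 1) scale, bars SE). No point is filled since none passed unpaired, and the OP9-Dll4 points lie to the left of 0 for 20 of 22 sterol members.

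Over OP9-Jag1 at 24 h no member passed unpaired, beside 1.04% of genes higher and 0.987% lower, and limma and edgeR each gave 2 members at an unadjusted p under 0.05. The paired fit within each time called 1 sterol and 3 fatty acid members higher, beside 5.55% of genes higher and 5.34% lower. Scd2 read 2339.8, 1972 and 2730.0 over OP9-Jag1 and 1698, 1280.2 and 2031 over OP9-GFP, higher in 3 of 3 pairs with overlap of the groups (0.50 ± 0.19, adjusted p = 0.29 unpaired and 1.1e-06 paired). Scd1 read 376, 346 and 488 and 296, 271 and 379 (0.36 ± 0.15, adjusted p = 0.35 and 1.4e-06). Srebf1 read 128, 145 and 158 and 119.5, 96.6 and 129.8 (0.32 ± 0.15, adjusted p = 0.49 and 0.0034). The fourth gene of the paired fit was Fdps, the farnesyl diphosphate synthase (0.20 ± 0.16 with the SE of the unpaired fit, paired adjusted p = 0.0027). Insig1 (0.08 ± 0.17, adjusted p = 0.98) and Srebf2 (0.09 ± 0.15, adjusted p = 0.97) did not pass, and Scap lay at -0.03. Cd34 was lower here too (-0.59 ± 0.07, adjusted p = 0.00042), and the endothelial sum was 70.9, 75.0 and 82.7 over OP9-Jag1. Of the other listed endothelial genes Tek lay at -0.52, Nfatc1 at 0.07, Npr3 at 0.23, Eng at 0.24 and Kdr at 0.30, and none passed unpaired.

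OP9-Dll4 against OP9-Jag1 at 24 h compares the ligands without the GFP libraries. No member passed unpaired, beside 0.0288% of genes higher and none lower. The 4 genes called were the cardiomyocyte markers Myh7, Myl2, Actc1 and Ttn, higher over OP9-Dll4, and their part in the values of the members was not tested. Of the members 11 had an unadjusted p under 0.05 by limma and 11 by edgeR. The paired fit called 8 sterol and 4 fatty acid members lower over OP9-Dll4 and none higher, beside 0.331% of all genes lower and 0.151% higher. In every same-numbered pair 20 of 22 sterol and 10 of 11 fatty acid members were lower over OP9-Dll4, beside 17.1% of all genes. Scd1, at 239, 211 and 314 over OP9-Dll4 and 376, 346 and 488 over OP9-Jag1, did not overlap (-0.67 ± 0.15, adjusted p = 0.59 unpaired and 6.9e-09 paired). Scd2, at 1536, 1121 and 1841 and 2339.8, 1972 and 2730.0, did not overlap either (-0.66 ± 0.19, adjusted p = 1 and 6.8e-07). Sc5d, at 53.7, 48.3 and 61.5 and 64.7, 63.1 and 69.4, did not overlap (-0.27 ± 0.08, adjusted p = 1 and 0.0088). The summed stromal signal at 24 h was 1476 ± 107, 1543 ± 196 and 1473 ± 72.2 (SD, n = 3) over Dll4, GFP and Jag1, and the part of feeder RNA in these differences was not tested.

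At 6 h no member passed unpaired in any ligand comparison, and neither limma nor edgeR gave a member an unadjusted p under 0.05. The shares of all genes called were 0.00720% higher and 0% lower over OP9-Dll4, 0.0720% higher and 0.0288% lower over OP9-Jag1, and 0% between the ligands. Hmgcs1 read 91.8, 92.4 and 97.0 over OP9-Dll4, below each of the OP9-GFP libraries (112, 106 and 110.3), with -0.22 ± 0.13 (adjusted p = 1 unpaired and 0.0072 in the paired fit, which called this member only, beside 0.374% of genes lower and 0.792% higher). Stard4 at 6 h lay at -0.14 and Acat2 at -0.12 over OP9-Dll4, and both missed the threshold in both fits. In all pairs at 6 h, 13 sterol and 4 fatty acid members were lower over OP9-Dll4, beside 19.1% of all genes. Over OP9-Jag1 the smallest p belonged to Tm7sf2 (0.22 ± 0.19, adjusted p = 1), Scd2 (0.17 ± 0.19, adjusted p = 1) and Mvd (0.08 ± 0.10, adjusted p = 1). Tm7sf2, a sterol reductase of low signal, read 5.96, 9.03 and 6.55 over OP9-GFP and 6.00, 11 and 8.92 over OP9-Jag1. Acat2, the thiolase at the head of the pathway, read 99.8, 115 and 105 over OP9-GFP, 98.5, 104 and 91.8 over OP9-Dll4 and 102, 114 and 112 over OP9-Jag1. Between the ligands the smallest p belonged to Acat2 (-0.15), Stard4 (-0.13) and Idi1 (-0.19). The sterol members lay between -0.22 and 0.20 over OP9-Dll4 and between -0.14 and 0.22 over OP9-Jag1.

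Whether a ligand changed the rise with time was tested by interactions. None of the members passed for Dll4 by time or for Jag1 by time in limma, none had an unadjusted p under 0.05 by limma or edgeR, and 0.00720% of all genes passed in each. Mvd had the smallest p for Dll4 (-0.31 ± 0.15), followed by Fads2 (-0.23), and then Sc5d (-0.14) and Elovl6 (-0.21) with like p. Scd1 had the smallest p for Jag1 (0.38 ± 0.21, adjusted p = 1), followed by Acss2 (0.23) and Fasn (0.13). In the paired fit within each time 2 fatty acid members passed for Jag1, Scd1 (paired adjusted p = 0.00047) and Scd2 (0.33, 0.018), beside 0.742% of genes higher and 0.569% lower.

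The experiment with RO4929097, given for 24 h before 6 h over OP9-GFP, asked what blocking gamma-secretase changed when the feeder carried no added ligand. The 3 sterol members Msmo1, Sqle and Fdft1 and the fatty acid member Elovl6 rose, and none fell. Of all 12984 genes 0.223% rose and 0.685% fell. The median log2 fold change was 0.28 over the sterol members and 0.20 over the fatty acid members, beside 0.00 over all genes, and all 22 sterol members and 10 of the 11 fatty acid members had a positive value. Groups did not overlap for 13 sterol and 6 fatty acid members, all higher with RO4929097, beside 3.12% of all genes higher. The libraries carry numbers in their titles, and no label says that those of the same number are pairs. Deviations of same-numbered libraries correlated at 0.178 to 0.397. In a fit that treats them as pairs (replicate block, the paired fit here) 12 sterol and 4 fatty acid members rose and none fell, beside 1.21% of all genes higher and 2.08% lower. In the pairs, 20 of the 22 sterol members and 8 of the 11 fatty acid members were higher in 4 of 4 pairs, beside 11.9% of all genes.

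Msmo1 read 61.2, 59.4, 64.1 and 57.2 in DMSO and 76.9, 84.3, 106 and 92.8 in RO4929097, without overlap (0.56 ± 0.09, adjusted p = 0.017). Sqle read 93.7, 81.8, 92.1 and 85.7 and 105, 109, 119 and 107, also without overlap (0.32 ± 0.06, adjusted p = 0.043). Fdft1 read 62.6, 55.0, 62.3 and 53.3 and 82.2, 80.2, 81.6 and 66.7, with every inhibited library above every DMSO library (0.41 ± 0.08, adjusted p = 0.049). Elovl6, the elongase, read 65.9, 59.2, 72.9 and 64.9 and 79.2, 81.4, 89.1 and 88.1 without overlap (0.36 ± 0.07, adjusted p = 0.043). Insig1 had the largest log2 fold change, 0.59 ± 0.15, but read 56.2, 38.8, 45.7 and 35.5 and 82.5, 65.2, 66.3 and 53.4, which overlap, and passed only in the paired fit (adjusted p = 0.13 unpaired and 0.0006 paired). Srebf2 read 181, 161, 190.0 and 165 and 204, 217, 209.6 and 203, without overlap (0.26 ± 0.06, adjusted p = 0.092 unpaired and 0.037 paired). Srebf1 read 79.1, 83.5, 84.6 and 73.3 and 94.9, 99.0, 92.4 and 89.9 (0.23 ± 0.06, adjusted p = 0.12 and 0.033). Both regulators were higher in each inhibited library than in each DMSO library, whereas Scap read 76.3, 79.0, 80.4 and 79.5 and 82.3, 79.9, 84.2 and 86.4, which overlap, and passed in neither fit (0.08 ± 0.05, adjusted p = 0.63). The paired fit further called Hmgcs1 (0.48 ± 0.10, paired adjusted p = 0.0041), Mvd, Idi1, Fdps, Cyp51, Nsdhl and Dhcr7 of the sterol members, and Scd1 and Fads1 of the fatty acid members. Me1 was the 1 fatty acid member with a negative value (-0.10 ± 0.06, adjusted p = 0.69).

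**Figure D4:**
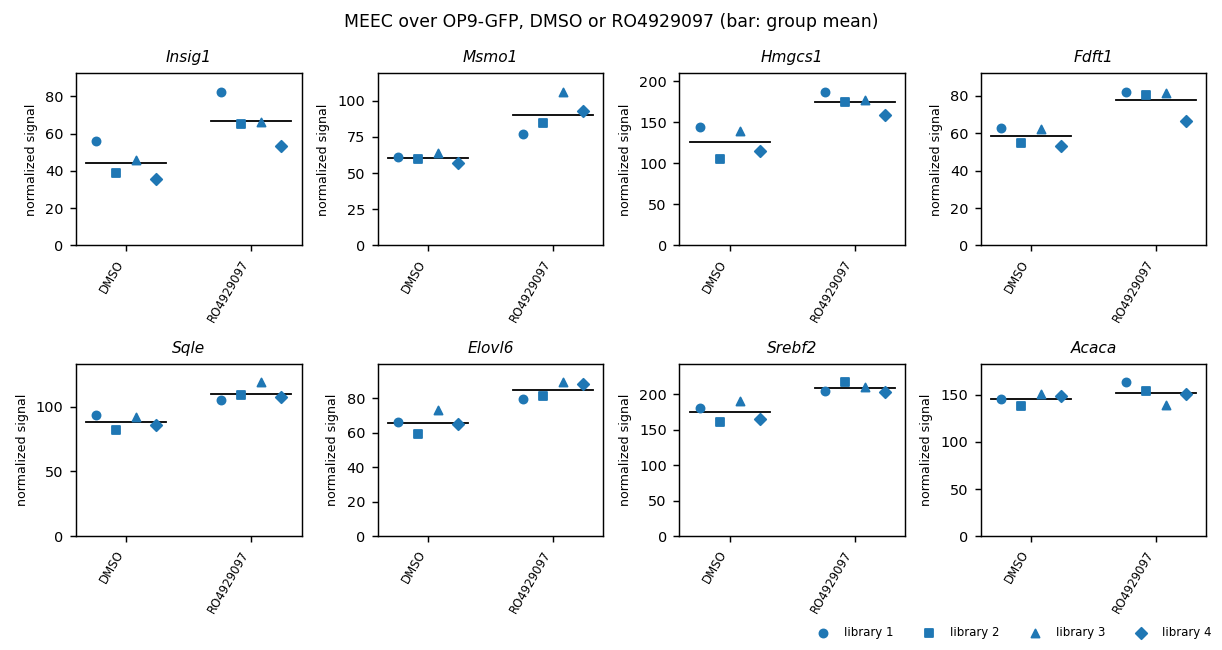
Deposited normalized signal (y axis, from 0) of 8 members in the 4 DMSO and 4 RO4929097 libraries of MEEC over OP9-GFP, with the group mean as a bar and the library number as the symbol. Inhibited libraries of Msmo1, Fdft1, Sqle, Elovl6 and Hmgcs1 lie above all DMSO libraries, those of Insig1 overlap, and those of Acaca overlap too.

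Leaving out 1 library left 0 to 4 unpaired calls. There were 0 without DMSO library 2 or 4, 1 without RO4929097 library 2 or 3, 2 without DMSO library 3 or RO4929097 library 1 or 4, and 4, all sterol members, without DMSO library 1. Gene by gene, the call of Msmo1 held in 6 of 8 such fits, and those of Sqle, Fdft1 and Elovl6 in 1 of 8 each. The summed sterol signal was 1570.1, 1411, 1608 and 1377 in DMSO and 1816, 1882, 1989 and 1726 in RO4929097, without overlap, and the summed stromal signal was 1557 ± 339 and 1549 ± 299 (SD, n = 4). The 5 listed endothelial genes summed to 92.9, 95.1, 100.60 and 96.2 in DMSO and 109, 108, 121 and 115 in RO4929097, without overlap, with Cd34 at 0.38 ± 0.12 (adjusted p = 0.26 unpaired and 0.0054 paired). Of the others Tek lay at 0.20, Nfatc1 at -0.05, Kdr at -0.28 and Npr3 at -0.32, and none passed in either fit. The part of the endothelial genes in the result was not tested. None of the 17 listed further fatty acid genes passed, and of the 7 listed LXR and efflux genes Ch25h, which makes an oxysterol, fell by 0.72 on the log2 scale (adjusted p = 0.049).

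On recombinant ligand in the third experiment, the question was which genes rJAG1 or rDLL4 changed without feeder cells. On rJAG1 2 fatty acid members, Fads2 and Elovl6, and 1 sterol member, Stard4, fell, and none rose, beside 4.83% of 13407 genes higher and 4.76% lower. Median log2 fold changes were -0.09 over the sterol members, -0.13 over the fatty acid members and 0.00 over all genes. Fads2, the delta-6 desaturase of polyunsaturated fatty acids, read 632, 597 and 505 in vehicle and 458, 375 and 418 on rJAG1, without overlap (-0.47 ± 0.09, adjusted p = 0.0034). Elovl6 read 168, 148 and 169 and 129.8, 93.5 and 121, also without overlap (-0.50 ± 0.10, adjusted p = 0.0029). Stard4 read 257, 259 and 232 and 218, 204 and 216 (-0.23 ± 0.07, adjusted p = 0.049), and this call held in 1 of 6 fits with a library left out, whereas Fads2 and Elovl6 held in all 6. Refitting with these 6 libraries alone called none of the members. Insig1 read 372, 451 and 323 and 339, 348 and 270.3, which overlap (-0.26 ± 0.13, adjusted p = 0.29 unpaired and 0.011 paired). Srebf2 (-0.09 ± 0.08, adjusted p = 0.57), Srebf1 (0.04 ± 0.12, adjusted p = 0.89) and Scap (-0.14 ± 0.09, adjusted p = 0.4) did not pass. The paired fit called 1 sterol and 1 fatty acid member higher and 4 and 3 lower, beside 7.38% of genes higher and 7.70% lower. The higher ones were Fdps and Me1.

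On rDLL4 no member passed, beside 2.45% of genes higher and 1.05% lower, with 3 members at an unadjusted p under 0.05 and none in the paired fit (4.02% of genes higher and 2.45% lower). These were Me1, at 168, 161 and 152 in vehicle and 196, 193 and 165 on rDLL4 (0.20 ± 0.08, adjusted p = 0.25), Fads2 at 507, 507 and 469 (-0.22 ± 0.09, adjusted p = 0.33) and Stard4 at 226, 235 and 211 (-0.15 ± 0.07, adjusted p = 0.4). Library 3 held the lowest value of its group for 15 to 19 of 22 sterol members in each of the 5 groups (18 in vehicle), and without vehicle library 3 a single member passed on rDLL4. Vehicle library 3 also stood far from the rest of its group over all genes, by the chi-square given with the processing. Between the ligands no member passed (0.104% of genes higher on rDLL4, 0.127% lower), with 2 at an unadjusted p under 0.05. Elovl6 was at 154, 144 and 135 on rDLL4 and 129.8, 93.5 and 121 on rJAG1, without overlap (0.34 ± 0.10, adjusted p = 0.27), followed by Fads2 (0.25 ± 0.09, adjusted p = 0.51) and Pmvk (-0.17 ± 0.08, adjusted p = 0.72).

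With RO4929097 on rJAG1, Fads2, Elovl6 and Fads1 of the fatty acid members and Stard4 of the sterol members rose against rJAG1 alone, and none fell, beside 9.58% of genes higher and 8.78% lower. This comparison shares the 3 rJAG1 libraries with that against vehicle. Fads2 read 657, 684 and 609 with the inhibitor, above each rJAG1 library (0.64 ± 0.09, adjusted p = 0.00014). Elovl6 read 173, 169 and 170.2 (0.58 ± 0.10, adjusted p = 0.00051) and Stard4 275, 308 and 282 (0.44 ± 0.07, adjusted p = 0.0003), both clear of the rJAG1 libraries. Fads1, the delta-5 desaturase, read 787, 705 and 677 on rJAG1 and 962, 1023 and 899 with the inhibitor, without overlap (0.41 ± 0.09, adjusted p = 0.0048). All 4 calls held in each of 6 fits with 1 library left out. Insig1 read 388, 465 and 359 with the inhibitor, above each rJAG1 library (0.34 ± 0.13, adjusted p = 0.091 unpaired and 0.00097 paired), and Srebf2 read 395, 396 and 367 (0.22 ± 0.08, adjusted p = 0.06 and 0.0071). Srebf1 (0.05 ± 0.12, adjusted p = 0.82) and Scap (0.13 ± 0.09, adjusted p = 0.34) did not pass. The paired fit called 9 sterol members higher and 2 lower, and 5 fatty acid members higher and 1 lower, beside 14.4% of genes higher and 12.7% lower. The lower ones were Ebp (-0.29 ± 0.11), Fdps (-0.21 ± 0.10) and Me1 (-0.19 ± 0.08).

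**Figure D5:**
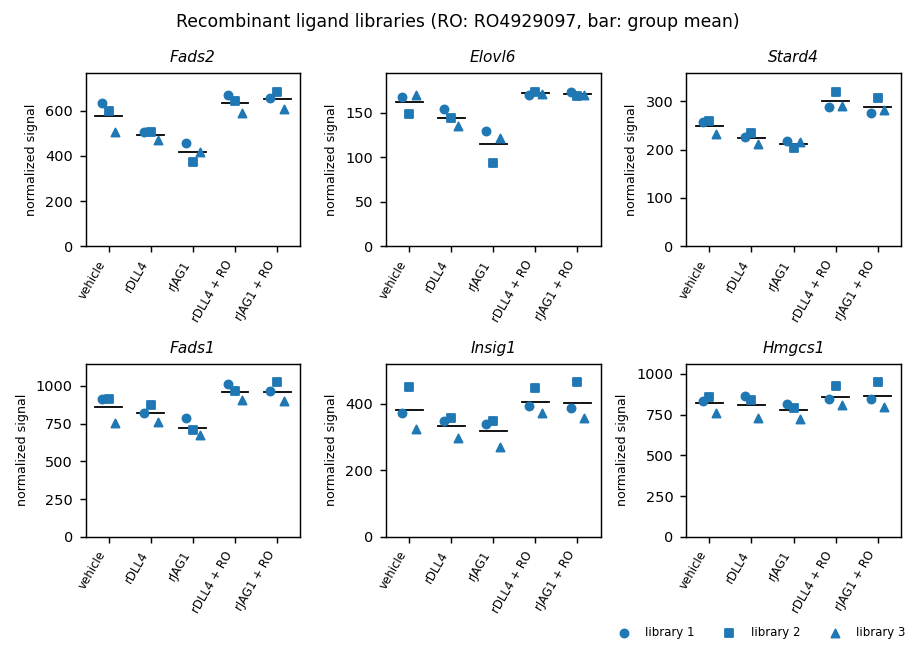
Deposited normalized signal (y axis, from 0) of 6 members in the 15 libraries of the third experiment, with the group mean as a bar and the library number as the symbol. Fads2 and Elovl6 are lowest on rJAG1, and with RO4929097 all their libraries lie above those of the same ligand alone.

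With RO4929097 on rDLL4, Stard4 and Fads2 rose and no member fell, beside 4.91% of genes higher and 5.76% lower. Stard4 read 226, 235 and 211 on rDLL4 and 289, 320.1 and 291 with the inhibitor, without overlap (0.42 ± 0.07, adjusted p = 0.00082). Fads2 read 507, 507 and 469 and 669, 642 and 589, also without overlap (0.36 ± 0.09, adjusted p = 0.02), and held in 3 of 6 fits with a library left out. Of the regulators, Insig1 (0.27 ± 0.13, adjusted p = 0.23), Srebf2 (0.10 ± 0.08, adjusted p = 0.48), Srebf1 (0.08 ± 0.12, adjusted p = 0.76) and Scap (0.02 ± 0.09, adjusted p = 0.92) did not pass. Against vehicle, no member passed with rDLL4 plus RO4929097 (0.552% of genes higher, 0.850% lower) or with rJAG1 plus RO4929097 (0.373% higher, 0.567% lower), and 1 and 2 members had an unadjusted p under 0.05. Stard4 had the smallest p in both, at 0.27 ± 0.07 (adjusted p = 0.078 unpaired and 0.02 paired, beside 2.16% of genes higher and 2.22% lower in the paired fit) and 0.21 ± 0.07 (adjusted p = 0.23). Mvd came next with rJAG1 plus RO4929097 (-0.27 ± 0.11, adjusted p = 0.41), at 54.5, 67.0 and 54.4 against 69.1, 80.9 and 63.0 in vehicle, followed by Fads2 (0.17). Scd1 came next with rDLL4 plus RO4929097 (0.22 ± 0.11, adjusted p = 0.45), at 1169, 1229 and 1089.6 against 1038, 1094 and 876 in vehicle, followed by Mvd (-0.21). With both ligands inhibited, no member passed (0% of genes called), none had an unadjusted p under 0.05, and Mvk (-0.11), Idi1 (-0.07) and Srebf2 (-0.07) had the smallest p. The interaction of ligand with RO4929097 called no member, beside 0.0149% of all genes, and gave 2 fatty acid members an unadjusted p under 0.05, Elovl6 (-0.33 ± 0.14, adjusted p = 1) and Fads2 (-0.28 ± 0.13, adjusted p = 1), followed by Idi1 (-0.17). Of the regulators in the 5 groups, Srebf2 read 381, 363 and 316 in vehicle, 348, 350.5 and 325 on rDLL4, 359.9, 317 and 317 on rJAG1 and 380.2, 371 and 347 on rDLL4 with RO4929097. Srebf1 read 127, 137 and 94.4 in vehicle, 129.9, 117 and 107 on rDLL4, 133, 127 and 106 on rJAG1, 131, 129 and 113 on rDLL4 with RO4929097 and 126, 128 and 125 on rJAG1 with it. In every treated group Srebf1 lay within the range of vehicle. Scap read 64.8, 61.8 and 54.9 in vehicle, 56.4, 55.9 and 56.7 on rDLL4, 60.6, 50.5 and 53.6 on rJAG1, 61.8, 58.4 and 51.8 on rDLL4 with RO4929097 and 62.7, 60.9 and 56.4 on rJAG1 with it.

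No enzyme of the mevalonate steps passed unpaired in this experiment. Hmgcs1 read 837, 858 and 761 in vehicle, 863, 842 and 727 on rDLL4, 818, 793 and 723 on rJAG1, 844, 926 and 810.4 on rDLL4 with RO4929097 and 844, 949 and 795 on rJAG1 with it, and all groups overlap with vehicle. Of the further genes, Acsl4, an acyl-CoA ligase of polyunsaturated fatty acids, was lower on rDLL4 (-0.31 ± 0.06, adjusted p = 0.012) and rJAG1 (-0.47 ± 0.06, adjusted p = 0.00014) and higher with RO4929097 on each (0.41 ± 0.06 (adjusted p = 0.00052) and 0.62 ± 0.06 (adjusted p = 5.9e-06)). Counted by list, 3 of the 16 listed further fatty acid genes fell on rJAG1 and none rose, and with RO4929097 on rJAG1 3 rose and 1 fell. Of 6 listed LXR and efflux genes, Apoe and Abca1 fell on rJAG1 (-1.23 ± 0.28 (adjusted p = 0.0099) and -0.65 ± 0.16 (adjusted p = 0.017)) and rose with RO4929097 (1.95 ± 0.28 (adjusted p = 0.00015) and 0.49 ± 0.16 (adjusted p = 0.047)). Sums of other markers moved with these groups. The 6 listed endothelial genes summed to 188, 193 and 129 in vehicle, 110.1, 111 and 97.7 on rJAG1 and 148, 165 and 143 on rJAG1 with RO4929097, and to 127, 146 and 116 and 169, 173 and 162 on rDLL4 without and with it. Among the adipocyte genes only Lpl and Cebpa of 10 were listed, at 752, 674 and 500.2 in vehicle, 418, 479.5 and 345 on rJAG1 and 731, 721 and 661 on rJAG1 with RO4929097, nearly all of it Lpl, and at 554, 571 and 453 and 810.0, 737 and 666 on rDLL4 without and with it. The 7 stromal genes summed to 1282, 1135 and 1165 and 1413, 1343 and 1401 on rJAG1, and 1309, 1293 and 1178 and 1502, 1373 and 1429 on rDLL4, without and with RO4929097. All 3 sums were higher with RO4929097 on either ligand, without overlap, but genes within the endothelial and adipocyte sums went both ways. With RO4929097 on rJAG1, Cd34 (0.67), Tek (0.76) and Lpl (0.79) passed as higher and Nfatc1 (-1.08), Kdr (-0.55) and Eng (-0.73) as lower. On rDLL4, Cd34 (0.37) and Lpl (0.50) passed as higher and Nfatc1 (-1.12) and Cebpa (-0.56) as lower. Of the cardiomyocyte genes 2 of 10 were listed: with RO4929097 Tnnt2 fell (-0.81 ± 0.17 (adjusted p = 0.0032) on rJAG1 and -0.85 ± 0.17 (adjusted p = 0.0038) on rDLL4) and Myl7 rose (1.05 ± 0.19 (adjusted p = 0.0012) and 0.91 ± 0.19 (adjusted p = 0.0061)). The part of these lists in the results was not tested.

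Per kilobase of exon, members differed widely in level within 1 group. Over OP9-GFP at 6 h Scd2 was highest, at 146 ± 23.9 (SD, n = 3), followed by Fads2 at 86.7 ± 4.64 and Fads1 at 74.3 ± 5.86. Acss2 at 0.987 ± 0.0772 and Tm7sf2 at 1.63 ± 0.370 were lowest. In the vehicle group of the third experiment, whose table was scaled separately, Scd2 was again first, at 700.2 ± 53.5, and Acss2 last, at 2.20 ± 0.102. Below the first place the order differed, with Scd1, Idi1, Fads1 and Hmgcs1 next there, at 205 ± 23.1, 204 ± 13.3, 179 ± 19.2 and 178 ± 11.1.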

How the data were processed

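For each experiment the authors deposited normalized signal per gene and library. Per the submitters' processing notes, FastQC, cutadapt, RSEM, limma and build GRCm38 were used (versions, annotation, strand setting: not given in the sources used here). Values are whole reads plus 0.5, times a step per library. Dividing by the step gave whole reads for 100% of values in each of 41 libraries (tolerance 0.01 reads), although steps of the second table and of 3 libraries of the third rest on few low values.

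Log2(signal + 1) was fitted with limma 3.58.1 (R 4.3.3) with a mean-variance trend, 1 fit per table over its groups, with Benjamini-Hochberg adjustment over all its genes. Unless marked as SD, ± is the SE of this unpaired limma fit, also where a paired p stands beside it. The minimum signal of 1 removed 0 genes. As tables were scaled apart, no test crosses them. The fit was tested on simulated data. edgeR 4.0.16 was run on recovered reads of the first table.

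The members and gene lists were chosen with earlier results of these data known. Values are given for up to 8 sterol and 6 fatty acid members with the largest change among those called, for Srebf1, Srebf2, Scap and Insig1 in the main comparisons, and for the 3 members of smallest p where none was called. Members named from paired fits, and counts of pairs, were picked after their values were seen. A list of further sterol genes is not reported here.

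Replicate numbers come from the sample titles. Nothing says that libraries of a group were separate cultures, and p-values cover only their spread, which may be technical. Deviations of same-numbered libraries correlated at 0.186 to 0.683 within a time of the ligand co-cultures and 0.178 to 0.397 in the inhibitor co-cultures. With recombinant ligand the values were 0.0778 to 0.420, under 0.1 only for rDLL4 with RO4929097 against rDLL4, which was not treated as paired. Across times the correlations lay at 0.0309 to 0.276, a range that overlaps the others, and those libraries were not treated as paired. Chi-square per gene between libraries of a group was 5.52 to 52.6 (45 pairs), and none was counted as a copy. It was highest for vehicle library 3, at 35.4 and 52.6 against libraries 1 and 2, which gave 11.1 between them. Over OP9-GFP at 6 h library 2 stood at 32.6 and 18.8 against libraries 1 and 3, which gave 5.52 between them.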

Additional observations from a re-analysis of the deposited data

Results flagged for a closer look

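In the groups of 4 libraries, 66 sets of values (33 members in 2 groups) were checked for a library far from the other 3, by Dixon's test at its 95% critical value. Chance flags about 1 in 20 groups, and 2 were flagged. Mvd in DMSO library 4 over OP9-GFP read 12.0, while the other 3 libraries read 16.5 to 16.6. Fdft1 in RO4929097 library 4 over OP9-GFP read 66.7, while the other 3 read 80.2 to 82.2. Library 4 held the lowest value of its group for 13 of 22 sterol members in DMSO and for 13 of 22 in RO4929097. The cause was not tested.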

How the results depend on the processing

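No member's called change turned direction under any alternative run. Pseudocount 0.1 and a minimum signal of 10 changed no count of called members, sterol and fatty acid together, by over 1.5 times (for RO4929097 on rJAG1 a minimum of 10 gave 2 sterol members in place of 1). edgeR on recovered reads of the first table gave the same counts of called members as limma there, and it was not run on the other tables, whose reads were recovered with less certainty in 11 libraries. Quantile normalization gave 8 called members over OP9-Dll4 with time (14 unaltered) and 7 for RO4929097 on rJAG1 (4 unaltered). Fitting only the groups named gave 0 for rJAG1 against vehicle (3 with all groups).

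With the replicate number as a block over the whole table, called members came to 16 for RO4929097 over OP9-GFP, 9 for rJAG1, 17 for RO4929097 on rJAG1, 4 for RO4929097 on rDLL4, 1 for rDLL4 plus RO4929097 against vehicle, and 2 each for OP9-Jag1 against OP9-GFP and OP9-Dll4 against OP9-Jag1 at 24 h. With the replicate block within each time they came to 15 for OP9-Dll4, 4 for OP9-Jag1 and 12 between the ligands at 24 h, 1 for OP9-Dll4 at 6 h, 2 for the Jag1 by time interaction, and 25 and 23 for time over OP9-GFP and OP9-Dll4. For time, where numbers were not treated as paired, this block takes the spread between numbers out of the error.

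Leaving out 1 library gave 13 to 16 members over OP9-GFP with time, 7 to 14 over OP9-Dll4 (7 without its 24 h library 3, 9 without its 6 h library 3) and 14 to 18 over OP9-Jag1. For RO4929097 over OP9-GFP it gave 0 to 4, for rJAG1 2 to 4, for rDLL4 0 to 1 (1 without vehicle library 3), and for RO4929097 on rDLL4 1 to 2. For RO4929097 on rJAG1 it gave 4 to 11 (11 without rJAG1 library 1, 7 without library 3). As CPM of recovered reads in place of deposited signal, the summed fatty acid members over OP9-Dll4 at 6 h came to 2739 (2657 as deposited), the 1 sum of the sterol or fatty acid members that moved by over its SD. Depth limits the smallest changes: a gene with 0 reads may have had up to 3 (95% confidence, counting error only), a signal of at most 0.266.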
